A study of Mus musculus with 30 samples.

Results

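The response to activin B was measured in a line of βTC3 cells that carried a pair of hairpins against ALK7, named sh1/2 in the labels. βTC3 is a mouse insulinoma line, grown from beta cell tumours of mice that carry the large T antigen of simian virus under the insulin promoter, and it secretes insulin. By their titles, 6 of the 30 libraries of the series belong to this comparison: 3 of sh1/2 cells given doxycycline (DOX) alone, at 1 µg/ml for 24 hours, and 3 of sh1/2 cells given the same DOX together with activin B at 50 ng/ml for 24 hours. Both arms therefore carried the plasmid labelled PB-31 ALK7-sh1/2 and received the inducer, so that activin B was the difference between them. All 6 libraries, and the 6 of the control line (plasmid labelled PB-33 control, same DOX and activin B) used beside them, were in batch 1. The wells were plated in triplicate from 1 line, and a PB-31 line with no hairpin was not analysed here. P-values therefore measure the spread between these wells, which may be technical.

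Activin B belongs to the TGF-β superfamily of secreted ligands. It binds the type II receptors ACVR2A and ACVR2B, which recruit and phosphorylate a type I receptor, ALK7 (encoded by Acvr1c) or ALK4 (Acvr1b). The type I receptor then phosphorylates SMAD2 and SMAD3, which join SMAD4, enter the nucleus and change transcription, including that of genes that damp the signal. ID genes are classical targets of the sister branch of the family, in which BMP ligands act through SMAD1, SMAD5 and SMAD9.

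Library totals of the 6 sh1/2 libraries ran from 18904884 to 34346968 counts, and 15627 of 39017 genes passed the filter on low counts. Levels below are CPM, a library's counts scaled to a common total, after a correction for GC content, and n = 3 libraries per arm throughout. The correction was made because DOX replicates 1 and 3 stood apart: across genes, Spearman's correlation between GC content and a library's deviation from the mean of all 30 libraries was -0.59 in DOX replicate 1 and -0.64 in DOX replicate 3, but 0.22 in DOX replicate 2 and 0.25 to 0.43 in the activin B libraries. After the correction it lay between -0.02 and 0.01 in all 6. The correction fits and removes each library's GC trend, so values near 0 after it follow from the fit and are no test of it. In the 6 control libraries it ran from -0.68 in activin B replicate 2 to 0.34 in DOX replicate 1 before the correction. After the correction the control values lay between -0.03 and 0.02. In the highest of the 20 GC bins (median GC 60.69%) the median log2 fold change of activin B against DOX was 0.49 without the correction and 0.03 with it. Replicates of an arm differed by more than counting error, with chi-square per degree of freedom from 9.85 to 55.2 before correction. The highest values, 55.2 and 49, were those of DOX replicate 2 against DOX replicates 1 and 3. After the correction the SD of the log2 CPM difference was still 0.259 and 0.261 for these pairs. It was 0.205 between DOX replicates 1 and 3.

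**Figure D1:**
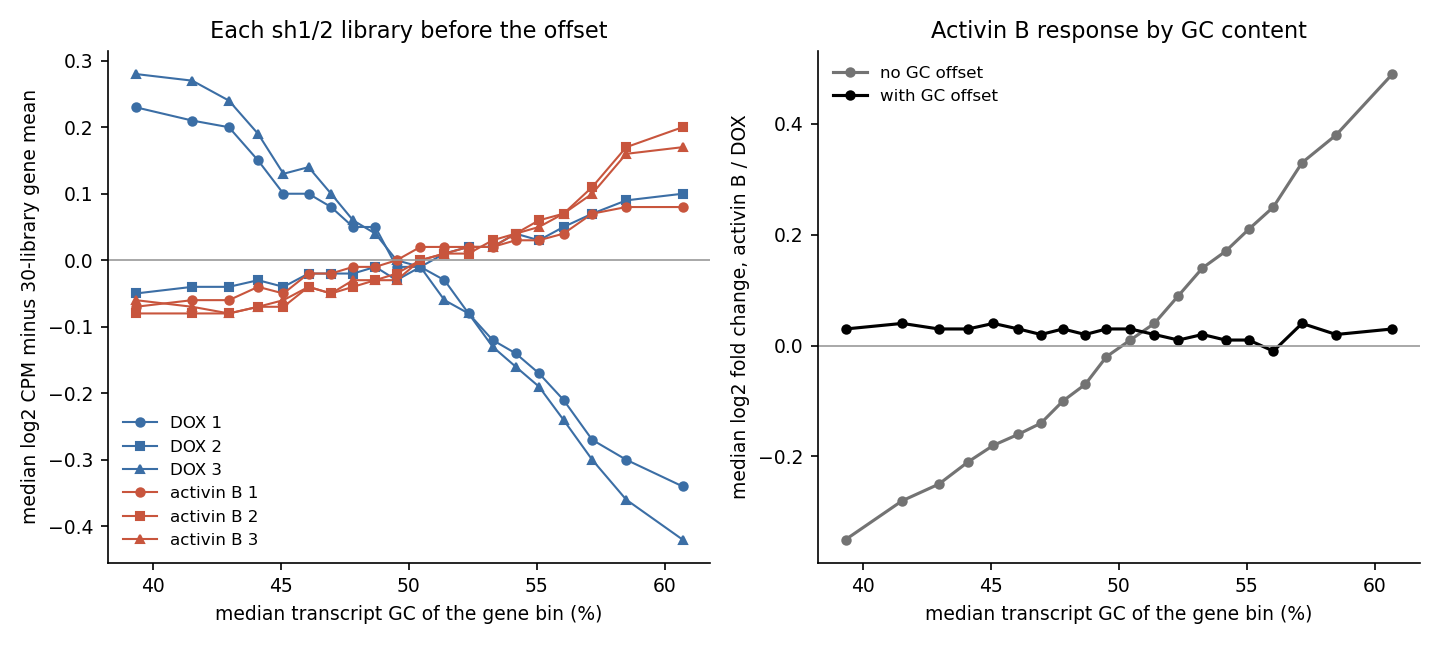
Left: for 20 bins of genes by GC content (x axis, median transcript GC in percent), the median log2 CPM of each sh1/2 library minus the 30-library mean of the gene, before correction. Right: median log2 fold change of activin B against DOX alone in the same bins, without (grey) and with (black) the GC offset. DOX replicates 1 and 3 fall to -0.34 and -0.42 in the bin of highest GC, while the other 4 libraries lie between 0.08 and 0.20 there.

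The first check concerned the hairpins' target. Acvr1c (ENSMUSG00000026834, mm10 chr2:58267453-58357895, minus strand, protein-coding) stood at 48.9, 48.2 and 47.0 CPM in the 3 sh1/2 libraries with DOX alone, where the control line had 165 ± 10.4 CPM (SD). The transcript was thus lower in the sh1/2 line than in the control line, as the label says, but still counted, with 1120 to 1659 reads per DOX library. With activin B Acvr1c stood at 29.9, 27.8 and 28.8 CPM in sh1/2 cells and at 96.0 ± 6.11 CPM in control cells. Acvr1c therefore fell further under the ligand, with no overlap between arms (adjusted p = 8.09e-08). The change was -0.74 ± 0.08 on the log2 scale, with its standard error after ±, as for every response below, and all adjusted p-values come from the quasi-likelihood test of edgeR. The fall in the control line was -0.78 ± 0.07, and the difference between the lines was 0.05 ± 0.11 (adjusted p = 0.855).

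The labelled cell type was checked against its defining markers. Ins2 stood at 4490 to 8060 CPM, Ins1 at 2120 to 3010 CPM and Iapp, the amylin gene, at 1890 to 2830 CPM in the 6 libraries, and Pdx1, a transcription factor of beta cells, at 219 to 351 CPM. The alpha cell factor gene Irx1 had 0 to 3 reads per library, although the alpha cell hormone Gcg was counted at 145 to 163 CPM with DOX alone. Defining markers of other cells were at or near 0: Ptprc of leukocytes had 0 to 2 reads, Cdh5 of endothelium 0, Col3a1 of fibroblasts 0, and Prss1 and Prss2 of acinar cells 0. The summed level of the tested acinar markers (2 of 13 passed the filter) was 4.44 to 4.68 CPM with DOX alone and 2.31 to 2.98 CPM with activin B, and that of the duct markers (5 of 8) was 29.1 to 30.7 and 56.2 to 57.3 CPM. The duct sum moved with the keratin gene Krt7, which rose from 19.5, 18.4 and 18.6 to 46.3, 46.3 and 47.1 CPM (1.31 ± 0.07, adjusted p = 1.01e-13), while the duct markers Krt19 and Sox9 had 0 to 2 and 0 to 6 reads. The fibroblast sum (2 of 9) was 1.13 to 2.36 and 1.89 to 2.86 CPM, the leukocyte sum (2 of 9) 3.09 to 3.51 and 3.50 to 3.81 CPM, and the endothelial sum (3 of 8) 4.43 to 5.01 and 3.23 to 3.71 CPM. In bulk RNA of this kind, fewer cells of a type and less RNA per cell cannot be told apart, and the part of these sums in the results below was not tested. The list of Schwann cell and neuron markers, several of which endocrine cells also express, had 6 of 8 members tested and summed to 494 to 524 CPM with DOX alone and 560 to 605 CPM with activin B.

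Activin B changed 3861 of the 15627 genes tested, or 24.7%, at an adjusted p under 0.05. Of these, 2212 (14.2%) were higher and 1649 (10.6%) lower, and 237 rose and 172 fell at least 2-fold. These shares of all tested genes are the background for every count of called list members below. The median log2 fold change of all tested genes was 0.02. Without the GC offset 5723 genes (36.6%) were called, 2731 higher (17.5%) and 2992 lower (19.1%). A fit of the 6 sh1/2 libraries alone called 2141 genes (13.7%), 1205 higher (7.71%) and 936 lower (5.99%). The 3 fits called 1670 genes in the same direction. With DOX replicates 1 and 3 left out, the DOX arm is 1 library, which the fit assumes to vary like the other groups, and there were 1815 calls (11.6%), 1006 higher (6.44%) and 809 lower (5.18%), of which 1666 were also called in the same direction with all libraries. Before and after correction alike, the 3 activin B libraries lay above the 3 DOX libraries in 1937 genes (12.4%) and below them in 1645 (10.5%).

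The increase with the smallest p was that of Fam210b, which encodes a mitochondrial membrane protein. It stood at 32.5, 30.9 and 33.1 CPM with DOX alone and at 320, 308 and 311 CPM with activin B, a 9.75-fold rise (3.28 ± 0.04, adjusted p = 2.91e-26). Among genes that moved less, Bmf, the gene of a BH3-only protein that promotes apoptosis, rose, and Gcg and Id3 fell, with values given below. The 250 bases before the RefSeq start of these 4 genes (GRCm38.p6, 5′ to 3′ on the gene's strand) are shown because these genes stand for the clearest rise, a pro-apoptotic target, the largest hormone fall and an ID gene. Capitals mark CAGAC or its reverse complement GTCTG, the core of the SMAD-binding element. GGCGCC, another motif that SMAD proteins bind, reads the same on both strands, was searched for as well and is in none of the 4.
Fam210b (chr2:172345327-172345576, plus strand): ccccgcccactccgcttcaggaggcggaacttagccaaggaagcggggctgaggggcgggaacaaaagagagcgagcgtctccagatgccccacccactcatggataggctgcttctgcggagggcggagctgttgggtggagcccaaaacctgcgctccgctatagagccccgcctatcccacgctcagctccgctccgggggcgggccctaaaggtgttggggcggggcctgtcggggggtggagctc
Bmf (chr2:118544588-118544837, minus strand): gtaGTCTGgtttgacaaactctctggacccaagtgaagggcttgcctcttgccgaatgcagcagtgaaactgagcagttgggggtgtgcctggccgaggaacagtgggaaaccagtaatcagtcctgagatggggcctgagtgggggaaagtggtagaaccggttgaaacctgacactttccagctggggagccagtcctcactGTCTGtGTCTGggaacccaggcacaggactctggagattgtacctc
Gcg (chr2:62483654-62483903, minus strand): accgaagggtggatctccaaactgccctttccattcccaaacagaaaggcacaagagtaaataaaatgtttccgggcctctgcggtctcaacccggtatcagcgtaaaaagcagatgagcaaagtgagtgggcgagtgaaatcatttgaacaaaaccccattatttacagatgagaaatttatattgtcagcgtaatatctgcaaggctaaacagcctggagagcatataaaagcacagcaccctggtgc
Id3 (chr4:136143572-136143821, plus strand): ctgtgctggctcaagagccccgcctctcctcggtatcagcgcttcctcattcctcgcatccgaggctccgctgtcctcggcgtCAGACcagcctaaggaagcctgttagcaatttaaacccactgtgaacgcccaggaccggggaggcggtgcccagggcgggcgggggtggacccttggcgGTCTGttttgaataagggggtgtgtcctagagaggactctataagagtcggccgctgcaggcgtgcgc
Bmf holds 3 matches to CAGAC on either strand, Id3 holds 2, and Fam210b and Gcg hold 0. Among the 15 genes that rose most by the naming rule, 11 had a promoter entry and 6 of these (54.5%) held CAGAC. Among the 15 that fell most, 4 of 13 (30.8%) held it, and among all tested genes 4251 of 10459 (40.6%). GGCGCC was in 0 of the 11, in 2 of the 13 (15.4%) and in 17.1% of all. These counts describe letters in a window and not binding.

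The receptors were examined first, from 15 listed type I and type II receptor genes of the TGF-β family, of which 11 were tested. Beside Acvr1c, which fell, 4 rose, and the median of the 11 was 0.17. Acvr1b, which encodes the alternative activin receptor ALK4, stood at 37.8, 37.0 and 33.1 CPM with DOX alone and at 44.9, 44.2 and 45.9 CPM with activin B (0.32 ± 0.06, adjusted p = 0.000406). The arms did not overlap, and Acvr1b moved opposite to Acvr1c. Acvrl1, the gene of the type I receptor ALK1, rose from under 1 CPM in each DOX library (0.770, 0.764 and 0.558) to 1.96, 1.66 and 1.87 CPM (1.35 ± 0.21, adjusted p = 2.05e-05). Bmpr2, the gene of a type II receptor for BMP ligands, rose from 18.5, 19.1 and 17.6 to 28.4, 26.5 and 27.1 CPM (0.57 ± 0.13, adjusted p = 0.00185), but was not called without the GC offset (0.21, adjusted p = 0.282) or without DOX replicates 1 and 3 (0.52, adjusted p = 0.0967). The type II receptor genes of activin did not pass the test: Acvr2a differed by 0.07 ± 0.04 (adjusted p = 0.21) and Acvr2b by 0.31 ± 0.17 (adjusted p = 0.194). Tgfbr1, the type I receptor of TGF-β itself, differed by -0.04 ± 0.04 (adjusted p = 0.536). Without the GC offset Acvr2a, Acvr2b and Tgfbr1 were called, at -0.28 for Acvr2a (adjusted p = 0.0208), 0.68 for Acvr2b (0.0332) and -0.32 for Tgfbr1 (0.00998). Tgfbr2, the type II receptor of TGF-β, had 0 to 7 reads per library and was not tested.

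Of 32 listed ligand and antagonist genes, 15 were tested, 4 rose and 0 fell (26.7% called against 24.7% of all genes, median 0.05). Tgfb1, the gene of the ligand TGF-β1, stood at 0.562, 0.509 and 0.261 CPM with DOX alone and at 4.06, 3.40 and 3.60 CPM with activin B (2.97 ± 0.23, adjusted p = 1.98e-10). Ltbp2, whose product is related to the proteins that tether latent TGF-β to the matrix, stood at 0.465, 0.406 and 0.510 against 4.16, 3.71 and 4.51 CPM (3.19 ± 0.20, adjusted p = 7.75e-12). Both were scarce without the ligand and several-fold higher with it in every library. Bmp1, a metalloprotease gene, rose by 0.50 ± 0.04 from 138 to 155 CPM over the DOX libraries to 205 to 211 CPM. Inhbb, the gene of the activin B subunit itself, had 0 to 4 reads per library.

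Of the SMAD transducers and their nuclear partners, 14 were tested, 5 rose and 4 fell (median 0.08). Smad3 fell from 15.7, 12.1 and 15.2 to 8.58, 7.80 and 8.40 CPM (-0.79 ± 0.09, adjusted p = 1.06e-07). Zfyve9, the gene of the scaffold SARA that presents SMAD2 and SMAD3 to the receptor, fell from 91.6, 86.4 and 94.9 to 57.1, 53.7 and 54.1 CPM (-0.73 ± 0.05, adjusted p = 7.49e-11). Transcripts of a transducer and of its scaffold were therefore both lower in the 3 treated wells than in any untreated well. Smad2 differed by 0.11 ± 0.05 (adjusted p = 0.0993) and Smad4 by 0.00 ± 0.04 (adjusted p = 0.962). Smad2 was called with the replicate number as a block (0.11, adjusted p = 0.0455) and when DOX replicate 2 was left out (0.14, adjusted p = 0.0481). Tgif1, a corepressor of SMAD2, rose by 0.59 ± 0.11 (adjusted p = 0.000304).

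The negative feedback genes moved upward. Of 11 tested, 9 were higher and 1 lower (90.9% called, 24.7% of all genes), with a median of 0.59 (0.02 over all genes). The list was chosen with earlier results of these data known, so this contrast is descriptive. Skil, Ski and Tgif1 were also counted among the SMAD transducers and partners. Ldlrad4, which encodes a membrane protein that keeps SMAD2 and SMAD3 from their receptor, rose from 1.54, 1.97 and 1.42 to 9.73, 9.91 and 10.1 CPM (2.57 ± 0.15, adjusted p = 9.37e-13). Pmepa1, a related inhibitor, rose from 11, 11.2 and 8.68 to 40.6, 41.1 and 41.6 CPM (1.98 ± 0.11, adjusted p = 3.21e-13). In both genes the treated wells were tightly grouped and far above the untreated ones. Bambi, the gene of a pseudoreceptor without a kinase, rose from 45.3, 61.7 and 43.3 to 141, 149 and 151 CPM (1.55 ± 0.11, adjusted p = 4.22e-11). Skil, which encodes the SMAD corepressor SnoN, rose from 38.7, 36.4 and 33.1 to 97.1, 96.0 and 102 CPM (1.44 ± 0.06, adjusted p = 3.32e-15). Smad7, the inhibitory SMAD, was at 6.00, 3.25 and 6.12 CPM with DOX alone and at 13.1, 11.4 and 12.3 CPM with activin B (1.29 ± 0.14, adjusted p = 1.85e-07). The correction widened the difference between its DOX libraries: before it they were at 4.66, 3.49 and 4.49 CPM, against 14, 13.1 and 13.9 CPM, a log2 fold change of 1.71 without the offset. With DOX replicates 1 and 3 left out it was 1.91.

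**Figure D2:**
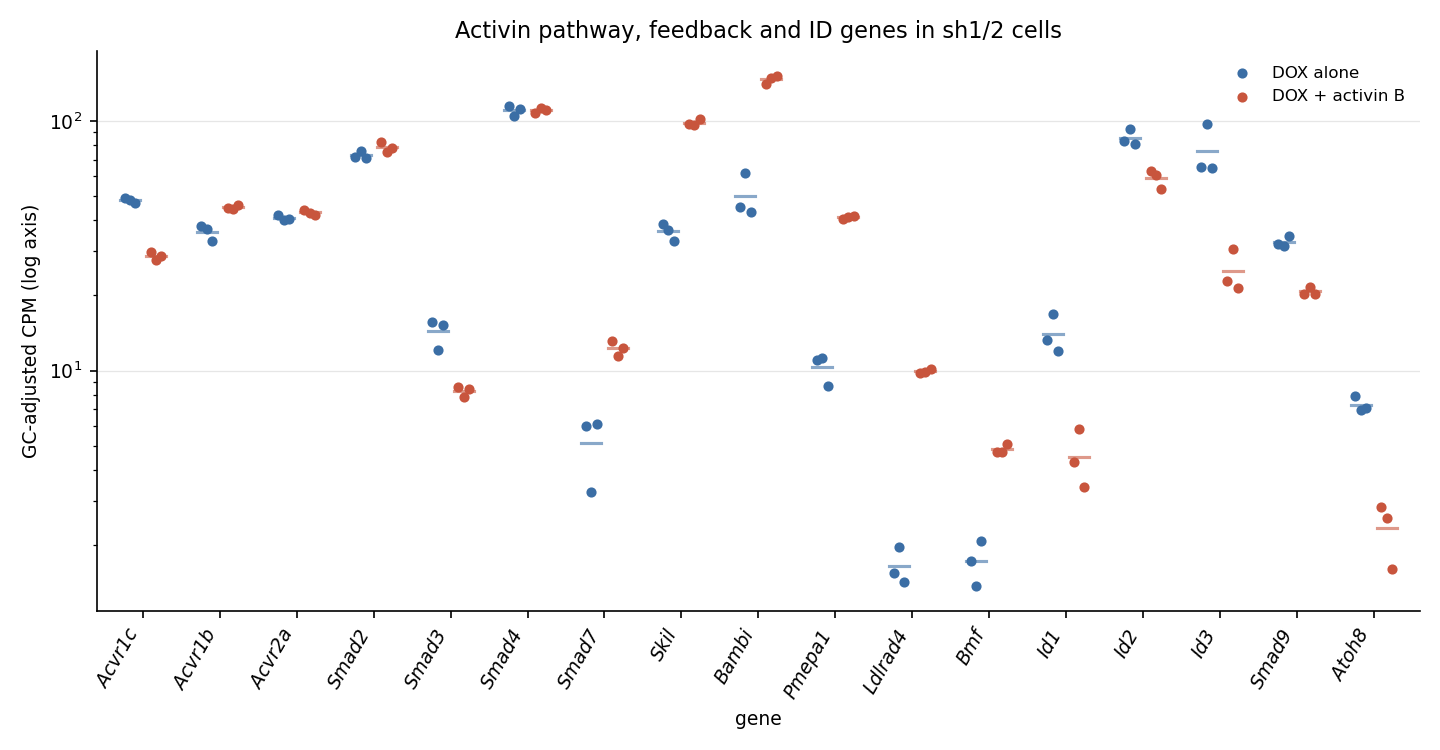
GC-adjusted CPM on a log axis of receptor, SMAD, feedback and ID genes (x axis) in each sh1/2 library, DOX alone in blue and DOX with activin B in red; points are libraries and bars are means. Ldlrad4, Pmepa1, Bambi, Skil, Smad7 and Bmf are higher in each treated library, Acvr1c, Smad3, Id1, Id2, Id3, Smad9 and Atoh8 lower, and the arms of Acvr2a, Smad2 and Smad4 overlap.

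Of 27 tested SMAD2/3 target genes, 13 were higher and 3 lower (59.3% called, median 0.29). The higher ones include Smad7, Skil, Pmepa1, Bambi and Ldlrad4, already counted as feedback genes, and Tgfb1 and Ltbp2, already counted with the ligands. Bmf stood at 1.72, 1.37 and 2.08 CPM with DOX alone and at 4.70, 4.72 and 5.10 CPM with activin B (1.52 ± 0.14, adjusted p = 1.06e-08). Lamb1, the laminin β1 gene, rose from 1.92, 2.82 and 2.68 to 10, 10.8 and 10.6 CPM (2.08 ± 0.12, adjusted p = 8.37e-13). Both genes had non-overlapping arms. Bhlhe40, a transcriptional repressor gene, rose by 0.77 ± 0.09 (adjusted p = 2.15e-07). Cdkn1a, which encodes the CDK inhibitor p21, is a textbook target that rises under TGF-β in many epithelia, but it went the other way, from 218, 223 and 222 to 164, 164 and 167 CPM (-0.42 ± 0.04, adjusted p = 5.04e-08). The other targets that fell were Id1, which is also on the BMP list, and Spsb1, which is also on the feedback list.

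The BMP and SMAD1/5 target genes were mostly lower, with 6 of 11 tested down, 2 up and a median of -0.54. Id1, Id2 and Id3 encode inhibitors of basic helix-loop-helix factors. Id1 fell from 13.2, 16.9 and 12 to 4.32, 5.82 and 3.42 CPM (-1.63 ± 0.20, adjusted p = 1e-06). Id3 fell from 65.1, 97.0 and 64.9 to 22.9, 30.7 and 21.5 CPM (-1.60 ± 0.15, adjusted p = 1.3e-08). In both, the highest library of each arm was replicate 2, and the arms did not overlap. Id2 fell by less, from 83.0, 92.5 and 81.0 to 62.9, 60.7 and 53.3 CPM (-0.54 ± 0.08, adjusted p = 1.16e-05). Smad9 fell from 32.2, 31.5 and 34.6 to 20.3, 21.7 and 20.3 CPM (-0.66 ± 0.07, adjusted p = 1.57e-07). Atoh8, a helix-loop-helix factor gene that BMP signals raise, fell from 7.87, 6.94 and 7.06 to 2.83, 2.56 and 1.61 CPM (-1.64 ± 0.18, adjusted p = 1.09e-07). The 2 that rose were Bambi, also on the feedback and SMAD2/3 target lists, and Grem1, a BMP antagonist gene of the ligand list.

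Among 17 tested genes of the BCL2 family 3 rose and 3 fell (median -0.02), and Bmf was the only one of these past the test in all of the fit without the offset, the fit of 6 libraries and the fit without DOX replicates 1 and 3. Of 15 D cyclin and CDK inhibitor genes 0 rose and 6 fell (median -0.03). Ccnd2, the cyclin D2 gene, fell from 1.28, 1.63 and 1.10 to 0.775, 0.710 and 0.445 CPM (-1.06 ± 0.23, adjusted p = 0.00111). Of 30 genes of the G1/S transition 2 rose and 5 fell (median 0.02). E2f2 fell by 0.55 ± 0.07 and Ccne1, the cyclin E1 gene, by 0.35 ± 0.05 (adjusted p 1.26e-06 and 2.22e-06). The share of called G1/S genes, 23.3%, was near the 24.7% of all genes. Of 30 genes of G2/M and mitosis 3 rose and 3 fell (20%, median 0.00), none by more than 0.22, and in the fit of 6 libraries 0 rose and 0 fell. Both lists depended on the fit. Without the GC offset 5 G1/S genes rose and 12 fell (median -0.07), and 3 G2/M genes rose and 9 fell (median -0.15). With the replicate block and the offset 6 G1/S genes rose.

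The hormone genes of beta cells were abundant. Ins1 stood at 2240, 3010 and 2170 CPM with DOX alone and at 2120, 2280 and 2360 CPM with activin B, and did not pass the test (-0.13 ± 0.14, adjusted p = 0.528). Ins2 stood at 6260, 8060 and 5590 against 4490, 5540 and 5210 CPM. Its arms did not overlap on this scale but did before correction (5190, 8410 and 4510 against 4710, 6050 and 5670 CPM), and its call (-0.39 ± 0.10, adjusted p = 0.00616) ended with 6 libraries (adjusted p = 0.114), without the GC offset (-0.14, adjusted p = 0.525) and without DOX replicate 2 (-0.22, adjusted p = 0.0674). Ins1 and Ins2 are close paralogs, and how reads matching both were counted is not given in the sources used here. Iapp differed by 0.19 ± 0.11 (adjusted p = 0.218), and by 0.41 (adjusted p = 0.000906) without DOX replicate 2, the library with the highest Ins1, Ins2 and Iapp of the 6. Pdx1 fell from 351, 267 and 348 to 252, 219 and 228 CPM (-0.46 ± 0.08, adjusted p = 6.9e-05). Here DOX replicate 2 was the lowest DOX library, and against it alone the difference was -0.20 (adjusted p = 0.16).

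Gcg, which encodes glucagon and is normally a product of alpha cells, fell from 145, 163 and 150 to 32.6, 32.4 and 31.4 CPM, to 0.211 of its level (-2.25 ± 0.08, adjusted p = 5.27e-17). Gip, the incretin hormone gene, fell from 924, 832 and 900 to 452, 370 and 364 CPM (-1.16 ± 0.08, adjusted p = 7.49e-11). Sct, the secretin gene, fell from 15.7, 22.8 and 13.1 to 4.95, 6.38 and 5.32 CPM (-1.64 ± 0.16, adjusted p = 2.1e-08). Each of these peptide hormone genes was lower in all treated libraries than in any untreated one. Of the 11 tested genes of other islet hormones and their regulators, 7 fell and 1 rose (median -0.60). Sst, the somatostatin gene of delta cells, stood at 4.01, 4.41 and 4.10 against 2.95, 4.41 and 4.79 CPM and did not pass the test (-0.04 ± 0.26, adjusted p = 0.937). The one that rose was Ppy, the pancreatic polypeptide gene, from 0.266, 0.415 and 0.270 to 1.26, 1.21 and 1.16 CPM (1.86 ± 0.32, adjusted p = 9.54e-05).

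Of 31 tested beta cell identity genes 8 rose and 8 fell (median 0.02), and 3 rose and 4 fell without DOX replicates 1 and 3. Glp1r, the receptor gene for the incretin GLP-1, rose from 139, 161 and 126 to 234, 243 and 230 CPM (0.73 ± 0.11, adjusted p = 8.99e-06). Slc2a2, the glucose transporter GLUT2 gene, fell from 3.80, 3.95 and 3.75 to 1.75, 1.42 and 1.70 CPM (-1.24 ± 0.18, adjusted p = 8.76e-06). Genes of endocrine progenitors were higher or did not pass the test, with 5 of 10 up and 0 down (median 0.49). Pax4, a factor of beta cell specification, rose from 17.5, 16.9 and 21.5 to 70.8, 66.0 and 68.9 CPM (1.89 ± 0.09, adjusted p = 1.13e-14). Sox4 rose by 0.74 ± 0.07 and Myt1 by 0.67 ± 0.05 (adjusted p 4.29e-09 and 2.96e-10). Neurog3, the master gene of islet progenitors, had 0 to 1 reads per library.

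The secretory machinery changed in both directions. Of 19 genes of prohormone processing and granule cargo 4 rose and 9 fell (68.4% called, median -0.16). Cpe, carboxypeptidase E, fell from 2210, 2250 and 2080 to 1400, 1380 and 1380 CPM (-0.66 ± 0.04, adjusted p = 2.36e-12), Scg2 (secretogranin II) fell by 0.96 ± 0.04, and Pcsk1, the proinsulin convertase PC1/3 gene, fell by 0.47 ± 0.06. Pdyn, the dynorphin precursor gene, fell from 56.4, 56.9 and 50.2 to 16.8, 15.1 and 14.7 CPM (-1.81 ± 0.11, adjusted p = 6.12e-12). In the other direction, Chga (chromogranin A) rose from 2320, 2520 and 2570 to 3630, 3540 and 3760 CPM (0.56 ± 0.04, adjusted p = 7.97e-11). Pcsk1n, which encodes proSAAS, an inhibitor of PC1/3, varied widely within an arm, with 3.90, 9.57 and 1.99 CPM against 25.9, 46.4 and 34.4 CPM (2.67 ± 0.46, adjusted p = 8.17e-05). Among 23 genes of granule docking and exocytosis 4 rose and 4 fell (median -0.02). Cplx2 (complexin 2) rose by 0.80 ± 0.05, while Snap25 fell by 0.32 ± 0.06.

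Tph1 and Ddc, which act in serotonin synthesis, rose. Tph1, tryptophan hydroxylase 1, the rate-limiting enzyme, stood at 1.27, 1.21 and 1.08 CPM with DOX alone and at 5.10, 5.62 and 6.28 CPM with activin B (2.24 ± 0.15, adjusted p = 3.5e-11). Its scarce paralog Tph2, at 0.178 to 0.685 CPM in the 6 libraries, did not pass the test (-0.68 ± 0.33, adjusted p = 0.137). Ddc, the decarboxylase of the next step, rose from 33.1, 35.2 and 38.2 to 98.9, 95.8 and 104 CPM (1.49 ± 0.07, adjusted p = 6.24e-14). Qdpr, which regenerates the hydroxylases' cofactor, rose by 0.57 ± 0.04, and Maob, a monoamine oxidase gene, fell by 0.50 ± 0.04 (adjusted p 3.74e-10 and 3.28e-10). Of the 10 tested genes of the list 5 rose and 2 fell (median 0.13). Slc6a4, the serotonin transporter gene, had 0 to 3 reads.

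Chaperones of the endoplasmic reticulum (ER) and unfolded protein response genes were lower. Of 32 tested, 21 fell and 1 rose (68.8% called, median -0.19), with 24 down and 1 up without the GC offset and 18 down and 1 up without DOX replicates 1 and 3. Hspa5, the chaperone BiP, fell from 1340, 1320 and 1440 to 954, 1010 and 1000 CPM (-0.47 ± 0.04, adjusted p = 2.07e-10). Sdf2l1, a BiP partner, fell from 77.5, 87.1 and 76.8 to 51.2, 52.6 and 53.2 CPM (-0.62 ± 0.05, adjusted p = 6.11e-10). The disulfide isomerase genes P4hb and Pdia4 fell by 0.39 ± 0.04 and 0.35 ± 0.04. These were shifts of less than 2-fold, with arms that did not overlap in any of the 4 genes. The ATF4 stress response list showed no such tilt, with 5 up and 6 down of 25 (median 0.04), and 1 up and 2 down in the fit of 6 libraries.

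In metabolism the changes went both ways. Of 27 glycolysis genes 3 rose and 5 fell (29.6% called against 24.7% of all genes, median -0.04), and Hk1, hexokinase 1, fell by 0.42 ± 0.07. Of 25 cholesterol genes 4 rose and 7 fell (44% called, median 0.01). Abca1, the cholesterol exporter gene, rose from 68.2, 60.7 and 66.6 to 171, 163 and 168 CPM (1.36 ± 0.06, adjusted p = 8.59e-15), and its relative Abcg1 rose by 0.52 ± 0.07. Of 25 fatty acid genes 2 rose and 7 fell (36% called, median -0.05). Acly, ATP-citrate lyase, rose from 1920, 2090 and 2070 to 3370, 3310 and 3400 CPM (0.73 ± 0.05, adjusted p = 9.4e-12), while the elongase Elovl6 and the desaturase Scd1 fell by 0.44 ± 0.06 and 0.35 ± 0.06. Of 38 cytosolic ribosomal protein genes 1 rose and 1 fell (5.26%, median -0.02).

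Matrix and junction genes held some of the largest increases. Spon2, a secreted matrix protein gene, stood at 1.18, 2.20 and 2.22 CPM with DOX alone and at 15.6, 16.9 and 20.2 CPM with activin B (3.23 ± 0.14, adjusted p = 6.73e-15). Jam2, a junctional adhesion molecule gene, rose from 1.32, 1.45 and 1.59 to 14.8, 15.3 and 14.6 CPM (3.36 ± 0.11, adjusted p = 4.34e-17). Lama5, laminin α5, rose by 1.00 ± 0.14, and Adamts7, a matrix protease gene, was at 0.0881 to 0.140 CPM with DOX alone and at 0.613 to 0.695 CPM with activin B. Of 32 tested genes of matrix, integrins and proteases 9 rose and 3 fell (median 0.15). Of 18 genes of cadherins, junctions and epithelial-mesenchymal transition 7 rose and 2 fell (median 0.20), and 3 rose and 0 fell without DOX replicates 1 and 3.

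**Figure D3:**
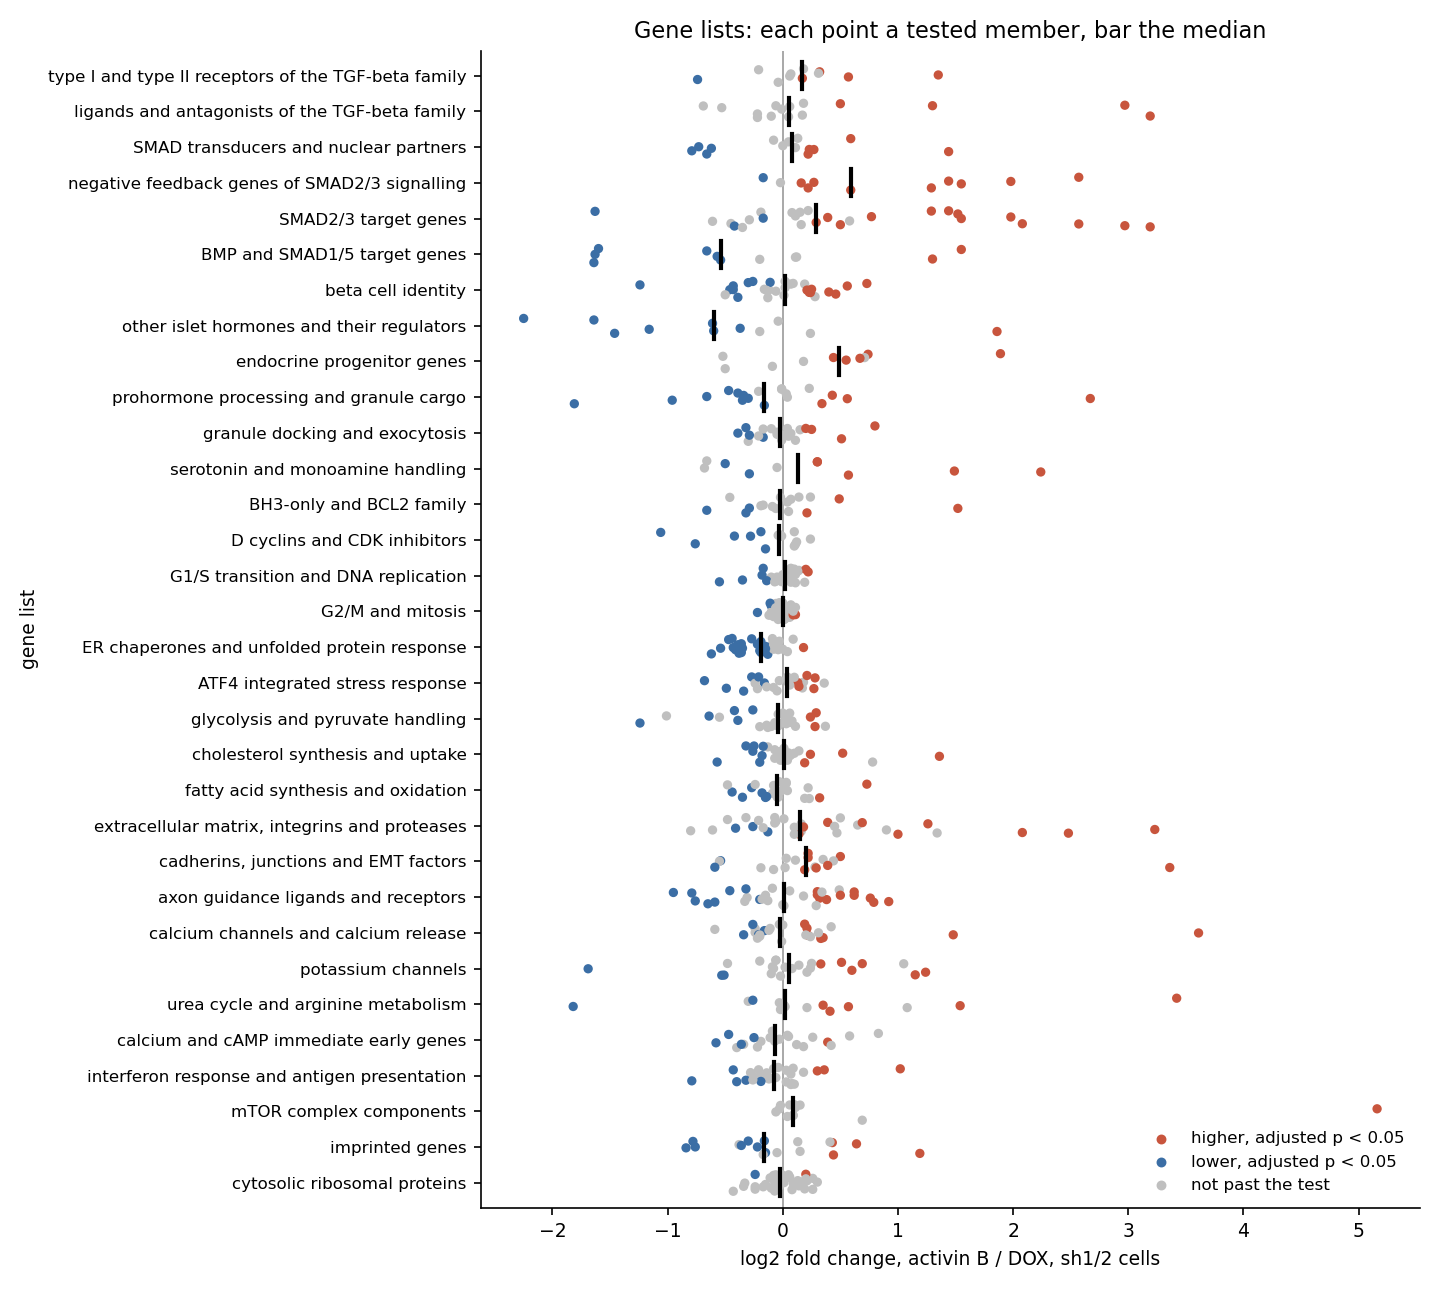
Log2 fold change of activin B against DOX alone in sh1/2 cells (x axis) for every tested member of 32 gene lists (y axis); red points rose and blue points fell at an adjusted p under 0.05, grey points did not pass the test, and the black bar is the list's median. Most feedback genes lie to the right of 0 (median 0.59), and most ER chaperones (median -0.19) and other islet hormones (median -0.60) to the left.

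By the naming rule, the largest increase was that of Prr5l, whose product binds the kinase complex mTORC2. It had 8, 5 and 1 reads in the DOX libraries and 193, 220 and 221 with activin B, or 6.18, 6.13 and 7.42 CPM (5.16 ± 0.23, adjusted p = 1.13e-14). It was the only one of 12 tested mTOR complex genes to pass the test in the main fit. Without the GC offset 6 of the 12 rose, and 2 rose with the replicate block, with voom and with the GC and length offset. Tmc7, a gene of the transmembrane channel-like family, rose from 1.44, 1.20 and 1.00 to 10.5, 10.6 and 10.8 CPM (3.10 ± 0.13). The others with large increases, Vwa5b1, Btbd11, Nxph1, Wnt3, Igfbpl1 and Camk1g, rose by 2.30 to 3.03 on the log2 scale. Wnt3, a ligand of the WNT pathway, remained scarce, at 1.81 to 2.14 CPM. Slc40a1, the iron exporter ferroportin, rose from 121, 120 and 121 to 359, 392 and 381 CPM (1.65 ± 0.04, adjusted p = 1.28e-20).

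The largest falls were those of Rasgef1c and C1ql3. C1ql3, a secreted synaptic protein gene, fell from 9.85, 9.15 and 9.45 to 1.80, 2.26 and 1.60 CPM (-2.32 ± 0.12, adjusted p = 3.21e-13). Rasgef1c, a guanine nucleotide exchange factor gene, fell from 3.79, 4.54 and 3.59 to 0.560, 0.884 and 0.939 CPM (-2.32 ± 0.22, adjusted p = 8.44e-09). Otc, ornithine transcarbamylase of the urea cycle, fell from 5.18, 5.82 and 6.02 to 1.79, 1.29 and 1.75 CPM (-1.82 ± 0.29), and Hkdc1, a hexokinase-like enzyme, fell from 2.64, 2.74 and 2.49 to 0.848, 0.639 and 0.640 CPM (-1.89 ± 0.21). Each of these genes had its 3 treated libraries below its 3 untreated ones, which the naming rule required of CPM before correction. Wfdc16, C1qa, Plcb2, Lcp2 and Slitrk6 fell by 1.55 to 2.27. The complement gene C1qa, Plcb2 and Lcp2 are best known from blood cells, while the leukocyte marker Ptprc had 0 to 2 reads.

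**Figure D4:**
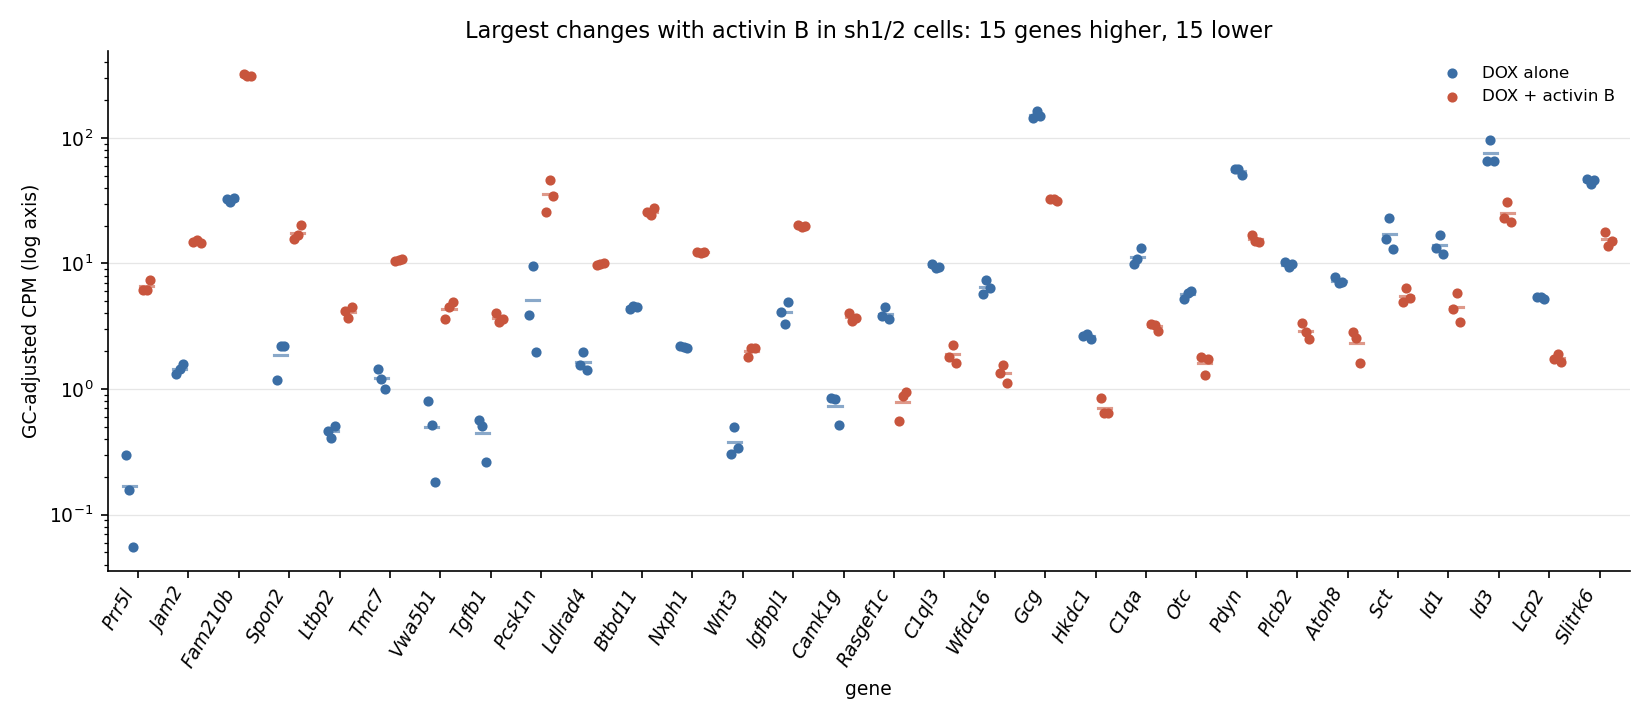
GC-adjusted CPM on a log axis of the 15 genes that rose most and the 15 that fell most by the naming rule (x axis), in each sh1/2 library, DOX alone in blue and DOX with activin B in red; bars are means. The arms do not overlap in any of the 30 genes, and the naming rule required this of CPM before correction. The widest spread within an arm is that of Pcsk1n and of the scarce Prr5l and Vwa5b1 with DOX alone.

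How the sh1/2 response differed from that of the control line was tested as an interaction. The control line gave 4277 calls (27.4%), 2036 higher (13%) and 2241 lower (14.3%). Of these 2242 were called in the same direction in sh1/2 cells, or 58.1% of the sh1/2 calls and 52.4% of the control calls, and 26 in the opposite one. The 2 lines share no library. Across all tested genes, which are not independent replicates, Pearson's r of the 2 sets of log2 fold changes was 0.538 and Spearman's rho 0.43. The difference itself passed the test for 836 genes (5.35%), with 490 (3.14%) higher and 346 (2.21%) lower in sh1/2 cells. This count moved with single libraries: it was 384 without DOX replicate 1, 2542 without DOX replicate 2, 420 without DOX replicate 3, 491 and 498 without activin B replicates 2 and 3, and 152 without DOX replicates 1 and 3. With the replicate number as a block it was 2629, of which 69.2% were higher in sh1/2 cells (58.6% without the block). Without the GC offset it was 2768, of which 47.9% were higher.

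The 5 genes with the smallest p among responses lower in sh1/2 cells were Gc, Cpt1a, Itga6, Agt and Slc40a1. Agt, the angiotensinogen gene, rose from 4.60, 5.41 and 4.20 to 15, 15.9 and 13.6 CPM in sh1/2 cells (1.63 ± 0.13), but from 2.08 ± 0.132 to 30.4 ± 3.16 CPM (SD) in the control line (3.87 ± 0.14). The difference was -2.24 ± 0.19 (adjusted p = 8.96e-08). The vitamin D-binding protein gene Gc rose from 43.6, 47.5 and 42.3 to 51.3, 56.0 and 54.3 CPM in sh1/2 cells (0.28 ± 0.05), against 26.4 ± 1.04 to 73.8 ± 2.02 CPM in the control line (1.49 ± 0.05), a difference of -1.21 ± 0.08 (adjusted p = 5.45e-10). Both genes started higher and ended lower in sh1/2 cells than in control cells. Cpt1a, the gatekeeper of mitochondrial fatty acid uptake, went from 90.1 ± 0.39 to 81.2 ± 3.14 CPM in sh1/2 cells (-0.15 ± 0.04, adjusted p = 0.00667) and from 57.5 ± 0.886 to 90.3 ± 4.39 CPM in the control line (0.65 ± 0.04). The difference was -0.80 ± 0.06 (adjusted p = 3.84e-09), while the small fall within sh1/2 cells was not called without activin B replicate 2 (-0.12, adjusted p = 0.0528) or without DOX replicates 1 and 3 (-0.16, adjusted p = 0.087). Itga6 (integrin α6) and Slc40a1 differed by -0.58 ± 0.05 and -0.46 ± 0.05 (adjusted p 1.94e-08 and 8.19e-06). With the single DOX library left without replicates 1 and 3, whose spread the fit takes from the other groups, the difference was -1.31 for Gc and -2.41 for Agt. The rise of Gc within sh1/2 cells was not called in that fit (0.18, adjusted p = 0.125) or without the GC offset (0.09, adjusted p = 0.242), and that of Itga6 (0.18) not without the offset (0.03, adjusted p = 0.745).

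Of the feedback and target genes, Bmf rose in sh1/2 cells to 4.84 ± 0.223 CPM and in control cells to 11.1 ± 1.11 CPM, from 1.73 ± 0.358 and 1.17 ± 0.181 CPM. Its response was 1.73 ± 0.21 log2 units smaller in sh1/2 cells (difference -1.73, adjusted p = 2.13e-05), and -1.43 (adjusted p = 0.00288) without DOX replicates 1 and 3. The difference was -1.02 ± 0.12 for Pax4 (adjusted p = 1.97e-05), -0.62 ± 0.10 for Sox4 (adjusted p = 0.00042), -1.06 ± 0.16 for Jam2 (adjusted p = 0.00042), -1.37 ± 0.21 for Spon2 (adjusted p = 0.000389) and -0.94 ± 0.17 for Lamb1 (adjusted p = 0.00153). All of these had risen in both lines, by less in sh1/2 cells. For Smad7 the difference was -1.15 ± 0.21 (adjusted p = 0.00153) but -0.53 (adjusted p = 0.168) without DOX replicates 1 and 3, and for Pmepa1 -0.62 ± 0.15 (adjusted p = 0.0144) but -0.58 (adjusted p = 0.0538) without DOX replicate 1 and -0.31 (adjusted p = 0.301) without the GC offset. Tph1 differed by -0.98 ± 0.23 (adjusted p = 0.0137; 0.12 without DOX replicates 1 and 3) and Krt7 by -0.50 ± 0.09 (adjusted p = 0.00218; 0.0539). Bambi (-0.16 ± 0.15, adjusted p = 0.58) and Prr5l (-1.06 ± 0.44, adjusted p = 0.248) did not pass the test. Without the GC offset the difference of Bambi was -0.44 and was called (adjusted p = 0.00293).

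Among the BMP targets, Id2 and Smad9 fell in sh1/2 cells and did not pass the test in control cells, where they went from 66.3 ± 2.57 to 73.4 ± 6.59 CPM and from 42.2 ± 3.43 to 40.1 ± 1.91 CPM. The difference was -0.69 ± 0.11 for Id2 (adjusted p = 0.000636) and -0.58 ± 0.10 for Smad9 (adjusted p = 0.00108). Id1, which stood at 14 ± 2.52 CPM in sh1/2 and 3.79 ± 0.662 CPM in control cells with DOX alone, differed by -0.91 ± 0.30 (adjusted p = 0.0726; 0.0073 with the replicate block, 0.0404 by DESeq2 and 0.0369 without activin B replicate 2). Id3 fell in both lines, with a difference of 0.07 ± 0.21 (adjusted p = 0.891). Cdkn1a, too, fell only in sh1/2 cells by the tests: it stood at 91.5 ± 1.99 CPM in control cells with DOX alone and at 94.6 ± 5.73 CPM with activin B, and the difference was -0.47 ± 0.06 (adjusted p = 7.29e-05).

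Responses that were higher in sh1/2 cells were those of Mmd2, Sdf2l1, Gpd2, Cldn1 and Magt1 by the naming rule. Mmd2, a gene of the progestin and adipoQ receptor family, rose from 30.4, 29.3 and 29.9 to 35.1, 34.8 and 39.2 CPM in sh1/2 cells (0.28 ± 0.05) and fell from 58.6 ± 2.04 to 41.1 ± 1.34 CPM in the control line (-0.51 ± 0.05). The difference was 0.79 ± 0.07 (adjusted p = 9.3e-08). Mitochondrial glycerol-3-phosphate dehydrogenase, Gpd2, fell in both lines, from 364, 366 and 365 to 245, 230 and 243 CPM in sh1/2 cells (-0.61 ± 0.05), with a difference of 0.51 ± 0.06 (adjusted p = 3.84e-05). Cldn1 (claudin 1) and Magt1 differed by 0.52 ± 0.06 and 0.35 ± 0.04, but by 0.09 (adjusted p = 0.483) and -0.04 (adjusted p = 0.811) without the GC offset, and the rise of Cldn1 within sh1/2 cells (0.19) was -0.15 without it. Of the 32 ER chaperone genes, 15 had a higher and 0 a lower response in sh1/2 than in control cells, where 29 fell. Sdf2l1 differed by 0.63 ± 0.07, Pdia4 by 0.42 ± 0.06 and Hspa5 by 0.33 ± 0.05 (adjusted p 1.13e-05, 9.34e-05 and 0.00042). Hspa5 differed by 0.12 (adjusted p = 0.325) without the GC offset. Pdyn, which fell in both lines, differed by 1.01 ± 0.16 (adjusted p = 0.000477). For Gcg the difference was -0.33 ± 0.11 (adjusted p = 0.0688). It was called with the replicate block (adjusted p = 0.043), by DESeq2 (0.0109), by voom (0.011) and without the GC offset (-0.56, 0.00311). For Ins1 it was 0.60 ± 0.19 (adjusted p = 0.069), called with the block (0.00374), without DOX replicate 2 (0.00702), by DESeq2 (0.0479), by voom (0.00829) and without the GC offset (0.46, 0.0434). Since the control line carried another plasmid backbone, the hairpins and the backbone cannot be told apart in these differences.

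**Figure D5:**
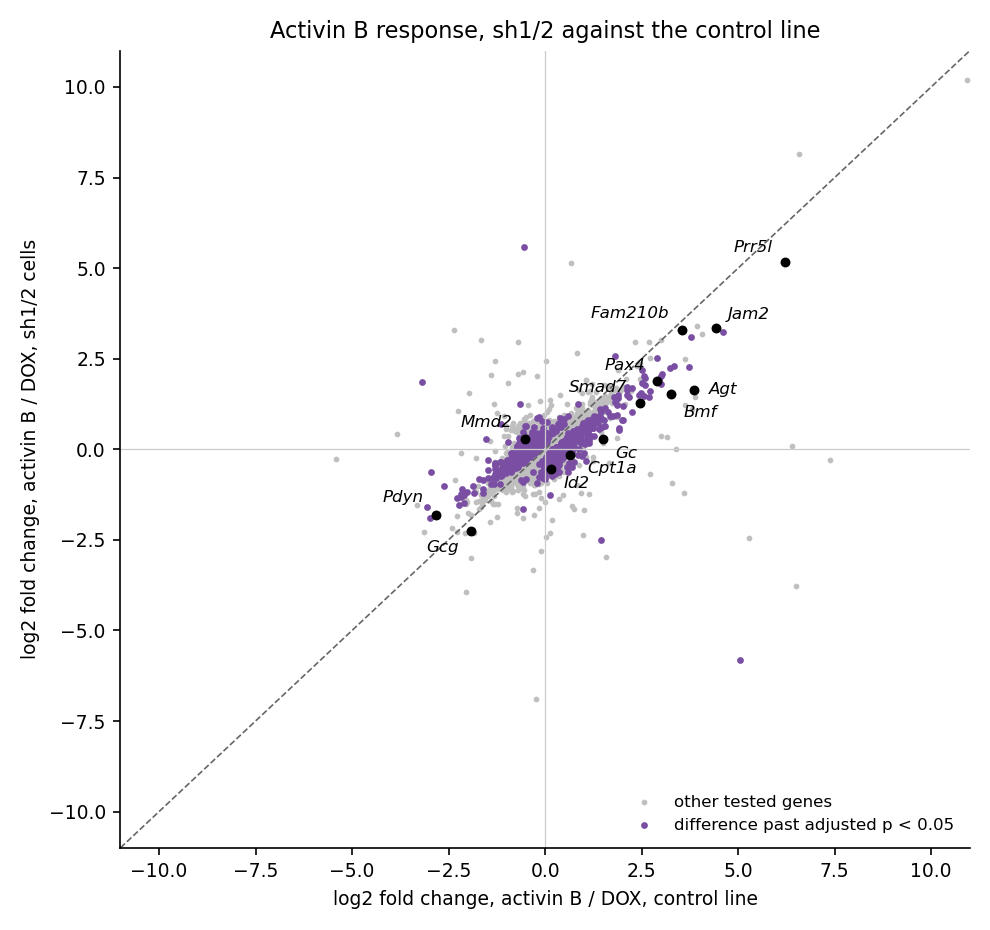
Log2 fold change of activin B against DOX alone in the control line (x axis) and in sh1/2 cells (y axis) for the 12587 genes that reached 2 CPM on average in 1 or more of the 4 groups; purple points are the 815 of these whose difference between lines passed an adjusted p under 0.05, black points are named genes and the dashed line marks equal responses. Agt, Bmf, Jam2 and Pax4 lie below the line on the right, and Gcg lies near it.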

How the data were processed

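RNA was sequenced from βTC3 wells with a stranded poly(A) kit, per the labels' protocols. The deposited counts are whole-number reads per gene that the authors made with bcl2fastq 2.17, cutadapt 1.4.2, HISAT2 and featureCounts 1.4.4 on mm10, per the submitters' processing notes. Strand and multi-mapping settings are not given in the sources used here, so overlapping, antisense and near-identical genes are uncertain.

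From these counts edgeR 4.0.16 (R 4.3.3) fitted quasi-likelihood models to all 30 libraries with 10 group means, after filterByExpr and with TMM factors. A GC offset was added for each library, a natural spline with 6 degrees of freedom of the log2 deviation on transcript GC (GENCODE M21), which 98.9% of tested genes had. P-values were adjusted by Benjamini-Hochberg over all 15627 genes, with a threshold of 0.05. The code was tested on simulated data with known changes. Promoter sequences are from RefSeq (GRCm38.p6).

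Members and all 38 gene lists were chosen with earlier results of these data known. Named genes were the pathway and marker genes, up to 15 per direction with the largest change among those called with and without the offset and with 6 libraries (at least 2 CPM in the higher arm, arms apart), up to 5 per list, and up to 5 per direction by p for the difference from the control line. Others are named for their role in a list, and a few genes that the rule names are not reported here. Genes that 2 parts of the rule name count under both. Alternatives were other offsets, libraries, normalizations and filters, DESeq2 1.42.0, limma 3.58.1 (voom) and a replicate block. The replicate numbers of the labels pair the samples: within-line residuals of same-numbered libraries correlated at 0.22 to 0.32 in sh1/2 and 0.20 to 0.32 in control cells, and those of other numbers at -0.27 to -0.05. The main fit did not use this pairing, so its standard errors and p-values are unpaired, and only the replicate block takes the pairing into account.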

Additional observations from a re-analysis of the deposited data

Results flagged for a closer look

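The response differed between the sh1/2 and the control line by edgeR's quasi-likelihood test of the interaction for 26 of the 33 genes tested for it by name. The 33 include genes named for the smallest p of this same difference, so 26 is no measure of how widely the lines differ. Of all 15627 tested genes 836 (5.35%) passed. Each value is the sh1/2 minus the control log2 fold change. Rises that were smaller in sh1/2 cells gave -2.24 for Agt, -1.73 for Bmf, -1.37 for Spon2, -1.21 for Gc, -1.15 for Smad7, -1.06 for Jam2, -1.02 for Pax4, -0.98 for Tph1, -0.94 for Lamb1, -0.62 for Pmepa1, -0.62 for Sox4, -0.58 for Itga6, -0.50 for Krt7 and -0.46 for Slc40a1. Genes that fell in sh1/2 cells and not in the control line gave -0.80 for Cpt1a, -0.69 for Id2, -0.58 for Smad9 and -0.47 for Cdkn1a. Falls that were smaller in sh1/2 cells gave 1.01 for Pdyn, 0.63 for Sdf2l1, 0.51 for Gpd2, 0.42 for Pdia4, 0.35 for Magt1 and 0.33 for Hspa5. Mmd2 (0.79) and Cldn1 (0.52) rose in sh1/2 cells and fell in the control line. Those of Smad7, Pmepa1 and Tph1 did not pass the test with only the 12 libraries of both lines (adjusted p = 0.0686, 0.0716 and 0.0585), and those of Pmepa1, Hspa5, Cldn1 and Magt1 did not pass it without the GC offset (-0.31, 0.12, 0.09 and -0.04). The rise of Itga6 within sh1/2 cells was not called without the offset (0.03, adjusted p = 0.745).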

How the results depend on the processing

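The count of genes called for the response, 3861, was 2141 with only the 6 libraries compared, 1815 without DOX replicates 1 and 3, 1254 without these and without the GC offset, 2831 to 4663 leaving out 1 library at a time, and 1494 (only the 6 libraries) and 7435 (replicate block) without the offset, the last pair chosen after seeing the data. The replicate block with the offset, which uses the pairing by number, gave 5108. The count for the difference from the control line, 836, was 2768 without the offset, 178 with only the 12 libraries, 535 without the low-count filter, 152 without DOX replicates 1 and 3, 81 without these and the offset, 2203 with voom and 384 to 2542 leaving out 1 sh1/2 library at a time. With the replicate block it was 2629, and without the offset 5956 with the block and 46 with only the 12 libraries. Without the offset Acvr2a reversed to -0.28 (-0.27 with the block), the response of Cldn1 to -0.15 with all libraries, with only the 6 and with the block (0.06 without DOX replicates 1 and 3), and the difference of Magt1 to -0.04 (-0.03 with the block). The cause was not tested. Other called values that moved by over 1.5 times without the offset were the responses of Hes6 (1.11), Chga (0.89), Bmp1 (0.76), Pcsk1 (-0.79), Snap25 (-0.63), Magt1 (-0.61), Sdf2l1 (-0.35), Hk1 (-0.27), E2f2 (-0.26), P4hb (-0.23) and Pdx1 (-0.22), and the differences of Smad7 (-0.59), Slc40a1 (-0.74), Sdf2l1 (0.99), Gpd2 (0.31) and Krt7 (-0.31), all still called in the fit of all 30 libraries. With only the libraries compared and no offset, the responses of Sdf2l1, Hk1, Pdx1, P4hb and E2f2 were not called (edgeR adjusted p = 0.161, 0.12, 0.106, 0.0825 and 0.0621). Nor were the differences of Smad7, Gpd2, Krt7 and Sdf2l1 (0.187, 0.187, 0.187 and 0.0765). Of 112 single-gene responses recomputed, 112 kept direction and call under DESeq2, RLE factors, no filter and the GC and length offset, 110 with only the 6 libraries, 108 without DOX replicates 1 and 3, 111 with the block (Smad2 was gained) and 104 without the offset. Of 33 differences from control, 30 kept them with the block and the offset, which gained Id1, Gcg and Ins1 and changed no other call. Without the offset 26 kept them with all libraries, 23 with the block and 18 with only the 12 libraries. In the last of these fits 13 lost their call and 1 reversed. With only the 6 libraries and no offset, 98 of the 112 responses kept direction and call.

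DOX replicates 1 and 3 had a GC trend opposite to that of the other 4 libraries, so small changes in genes of extreme GC content rest on the correction. With 3 wells of 1 line per arm, precision reflects wells and not independent lines.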

Other observations

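Ion channel genes changed in both directions under activin B in sh1/2 cells. Of 24 tested potassium channel genes 6 rose and 3 fell (37.5%, median 0.05), with Kcnk2, a background-current channel gene, up by 1.15 and Kcnq1, a voltage-gated one, down by 1.69 on the log2 scale. Of 26 genes of calcium channels and calcium release 7 rose and 4 fell (42.3%, median -0.02), and Cacna1g, a T-type channel gene, rose by 1.48. Of 31 axon guidance genes 10 rose and 8 fell (58.1%, median 0.01): the receptor genes Epha4, Robo1 and Robo2 fell by 0.79, 0.65 and 0.59. Of 15 genes of the urea cycle and arginine metabolism 5 rose and 2 fell (median 0.02), and Odc1, ornithine decarboxylase, rose by 0.57.

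Of 18 imprinted genes 4 rose and 8 fell (66.7%, median -0.16), with Grb10, an adaptor of insulin signalling, up by 1.19 and Peg10 down by 0.84. Of 27 interferon response and antigen presentation genes 3 rose and 5 fell (29.6%, median -0.08), and Usp18, a negative regulator of interferon signalling, fell by 0.79. Of 21 immediate early genes 1 rose and 4 fell (23.8%, median -0.07). The shares of the interferon and immediate early lists were near the 24.7% of all genes.

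Replicate 1 of both sh1/2 arms stood apart from the other 4 libraries in a small set of transcripts: 18 genes were more than 3-fold higher (CPM + 0.1, before correction) in each replicate 1 library than in any of the other 4. Thbs1 stood at 5.2 and 4.13 CPM against 0 to 0.173, Fn1 at 3.89 and 3.23 against 0.138 to 0.529, and Anxa1 at 3.86 and 2.66 against 0 to 0.0529. The same count was 3 for replicate 2 and 2 for replicate 3, and for replicate 1 it was 6 in the control line and 8 in the sh2 line.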
